A study of Homo sapiens with 9 samples.

Results

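Dense runs of QKI-5 peaks were stretches of RNA in which the peaks of a HITS-CLIP experiment followed each other closely. Peaks of the deposited list were sorted by chromosome, strand and start, and successive peaks were joined when at most 200 nt lay between the end of one and the start of the next. Runs of 5 or more peaks on the nuclear chromosomes were taken, leaving out the nuclear lncRNAs NEAT1 and MALAT1. The members were 4103 peaks in 516 runs, 17.2% of the 23850 peaks that remained of the 24037 listed after 18 mitochondrial peaks and 169 peaks of NEAT1 and MALAT1 were set aside. The other peaks were 11728 solitary peaks and 8019 peaks in runs of 2 to 4. The spacing of the peaks chose the members, so peak number, spacing and height are given as a description, without a test.

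QKI is an RNA-binding protein of the STAR family, which recognises the core element ACUAAY together with a nearby UAAY, the bipartite Quaking response element. Its nuclear isoform QKI-5 regulates alternative splicing and the formation of circular RNAs. Elements on the genome are written here with T for U.

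The cells were mesHMLE, a mesenchymal derivative of the immortalised human mammary epithelial line HMLE. The epithelial-mesenchymal transition (EMT) in HMLE was induced with TGF-β1 at 2.5 ng/ml for at least 14 days, and RNA and protein were crosslinked in living cells with ultraviolet light at 600 mJ/cm2. Of the 9 libraries, 7 came from immunoprecipitation with an antibody to QKI-5, 3 from the gel region of the monomer and 4 from that of the presumptive dimer (1 of these made with SuperScript IV), and 2 were size-matched inputs. All came from the same cell line and are numbered as up to 3 technical replicates, so no group was compared with another. The libraries were pooled before peaks were called, and the list therefore carries neither a replicate error nor the depth of any library. Intervals below are 95% Wilson intervals, which cover counting error only.

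The runs fell into kinds that their sequence makes visible, and examples are shown first. In 8 runs the core element ACTAAC recurred at a fixed spacing, as a tandem array. An array was taken as 4 or more sites whose commonest spacing, to within 2 nt, was at most 100 nt and took 50% or more of all spacings. This definition was chosen after the runs had been seen. All sequences are from hg19 (GRCh37), 5′ to 3′ on the strand of the run, with ACTAAC in capitals. The first is chr6:5189496-5189681, minus strand, in a run of 10 peaks of LYRM4, a factor of iron-sulphur cluster assembly. The second is chr21:43235190-43235386, minus strand, in PRDM15, a zinc-finger regulator of transcription. The third is chr1:246235595-246235771, minus strand, in SMYD3, a lysine methyltransferase. The fourth is chr13:113499087-113499248, plus strand, in the phospholipid flippase gene ATP11A. The fifth is chr16:1797712-1797877, plus strand, in MAPK8IP3, a scaffold of the JNK pathway. The last is chr12:1716099-1716155, plus strand, in the Wnt ligand gene WNT5B. All 6 runs were mainly intronic, and 49.5% of the peak nucleotides of the PRDM15 run lay in exons of a transcript annotated as retained_intron.
LYRM4: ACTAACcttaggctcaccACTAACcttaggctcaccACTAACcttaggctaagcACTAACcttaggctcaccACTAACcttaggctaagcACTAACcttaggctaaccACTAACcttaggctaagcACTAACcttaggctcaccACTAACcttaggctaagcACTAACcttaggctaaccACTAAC
PRDM15: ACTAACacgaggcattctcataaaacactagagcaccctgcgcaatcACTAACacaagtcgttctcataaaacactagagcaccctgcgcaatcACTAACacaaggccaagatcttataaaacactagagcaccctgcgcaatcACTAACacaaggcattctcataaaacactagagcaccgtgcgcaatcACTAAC
SMYD3: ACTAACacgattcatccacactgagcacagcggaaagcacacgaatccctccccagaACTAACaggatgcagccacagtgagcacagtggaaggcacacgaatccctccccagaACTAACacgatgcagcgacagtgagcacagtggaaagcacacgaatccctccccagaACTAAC
ATP11A: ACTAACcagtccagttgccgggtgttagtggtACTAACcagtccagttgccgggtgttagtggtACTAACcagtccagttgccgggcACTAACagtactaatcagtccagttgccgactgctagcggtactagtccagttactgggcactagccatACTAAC
MAPK8IP3: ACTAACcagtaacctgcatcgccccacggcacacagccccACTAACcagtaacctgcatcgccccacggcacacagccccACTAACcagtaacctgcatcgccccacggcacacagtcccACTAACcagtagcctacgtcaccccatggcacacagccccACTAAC
WNT5B: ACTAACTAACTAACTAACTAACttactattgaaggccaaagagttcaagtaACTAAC

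In 10 further runs the short element TAAC recurred as an array and ACTAAC did not. The sequences below, with TAAC in capitals, show the peak of greatest height in the run with the most peaks, in MICAL3 at chr22:18359682-18359898, minus strand, and the peaks with the most TAAC in 4 further runs. They are CANT1 at chr17:77001234-77001322, minus strand, GPR35 at chr2:241553147-241553382, plus strand, FAM120B at chr6:170707919-170708061, plus strand, and DIP2C at chr10:369139-369293, minus strand. All 5 peaks were annotated as intronic by their centre. The GPR35 run also held 5 ACTAAC, in 3 of its peaks, and where ac precedes TAAC in the sequence printed here the letters are those of the core element.
MICAL3: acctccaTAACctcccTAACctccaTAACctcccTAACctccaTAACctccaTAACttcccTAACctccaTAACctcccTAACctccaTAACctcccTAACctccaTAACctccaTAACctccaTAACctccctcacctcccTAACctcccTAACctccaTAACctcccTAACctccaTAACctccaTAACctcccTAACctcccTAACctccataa
CANT1: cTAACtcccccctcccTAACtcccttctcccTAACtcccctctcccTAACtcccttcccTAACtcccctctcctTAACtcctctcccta
GPR35: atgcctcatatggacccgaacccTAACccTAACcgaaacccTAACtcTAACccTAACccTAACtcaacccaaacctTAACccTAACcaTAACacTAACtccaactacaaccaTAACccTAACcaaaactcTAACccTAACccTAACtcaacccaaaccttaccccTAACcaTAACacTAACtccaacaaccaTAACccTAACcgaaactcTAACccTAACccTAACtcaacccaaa
FAM120B: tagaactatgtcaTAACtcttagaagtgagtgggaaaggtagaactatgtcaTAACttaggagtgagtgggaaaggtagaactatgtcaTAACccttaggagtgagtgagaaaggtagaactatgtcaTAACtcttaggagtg
DIP2C: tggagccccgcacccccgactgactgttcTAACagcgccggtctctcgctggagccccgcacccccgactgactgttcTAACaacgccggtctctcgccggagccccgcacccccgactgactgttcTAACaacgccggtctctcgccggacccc

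Runs without an array of either element held few or many core elements. The span of the MIAT run held 14 ACTAAC and that of TASOR 6, against 3 in DVL3, 2 in ARGLU1 and 1 in QKI. Shown are the tallest peak of ARGLU1 at chr13:107211410-107211490, minus strand, which holds neither ACTAAC nor TAAC, and that of the lncRNA MIAT at chr22:27067249-27067446, plus strand, which holds 1 ACTAAC. For runs in 3′UTRs only 26 nt around a core element are given, at chr3:183889044-183889069, plus strand, for DVL3, at chr3:56655028-56655053, minus strand, for TASOR, and at chr6:163994911-163994936, plus strand, for QKI itself. Capitals again mark ACTAAC.
ARGLU1: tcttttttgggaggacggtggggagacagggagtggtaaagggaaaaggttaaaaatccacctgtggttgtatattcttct
MIAT: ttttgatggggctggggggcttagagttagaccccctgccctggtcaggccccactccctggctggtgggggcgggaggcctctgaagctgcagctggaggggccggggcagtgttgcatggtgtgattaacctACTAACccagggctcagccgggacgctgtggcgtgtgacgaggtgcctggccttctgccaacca
DVL3: atctgcccctACTAACcatccccctg
TASOR: cgcctggctaACTAACTAACTAACtt
QKI: gagttactggACTAACcctgaagaac

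The runs were compact and filled with signal. They spanned 243 to 5468 nt, with a median of 780.5 nt, and together covered 486 kb, of which peaks took 72.3%. The median run had 6 peaks, and the longest had 43. No listed peaks overlapped, but 22.0% of the 3587 gaps inside runs were 1 nt long and 58.7% were at most 10 nt, so that many neighbouring peaks adjoined. The members held 23.8% of the summed height of all 23850 peaks and 21.8% of their nucleotides. Height is the whole number deposited with each peak. It is read here as the height of the peak's signal, and its unit and exact definition are not given in the sources used here. Median height was 29 in the members against 23 over all these peaks, and the members' median width was 75 nt against 61 nt. At the border of the rule, the 319 runs of 4 peaks had a median height of 24 and the 164 runs of 5 peaks one of 25. Across the list, 1267 gaps were longer than 100 nt and at most 200 nt, and 832 were longer than 200 nt and at most 300 nt.

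Among the dense runs, longer ones had taller and wider peaks. Median height was 24 for solitary peaks, 20 in runs of 2, 21 in runs of 3 and 24 in runs of 4, so that it was not higher in short runs than in solitary peaks. It was 26 in runs of 5 to 7 peaks, 29 in runs of 8 to 14 and 39 in the 37 runs of 15 or more. Median width was 59 nt for solitary peaks, 58 nt in runs of 2, 72 nt in runs of 5 to 7 and 83 nt in the longest class. Within a run, heights were uneven, with the tallest peak at a median of 2.52 times the run's median height (quartiles 1.73 and 3.81) and at most 23.8 times. The tallest peak lay in the first, middle and last part of the run, cut into 3 equal parts from its 5′ end, in 160, 192 and 164 runs.

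Over all locations together, the core element was less frequent per peak in dense runs than elsewhere in the list. ACTAAC was present in 324 of the 4103 member peaks (7.90%, interval 7.11 to 8.76) against 2086 of the 19747 other peaks (10.6%), and in 10.10% of all 23850 peaks. In a logistic regression over all peaks with log2 peak width as covariate and errors clustered on the run, the odds ratio of membership was 0.450 (interval 0.392 to 0.518, p = 4.8e-29, two-sided, n = 23850 peaks). Without the width covariate it was 0.726 (0.639 to 0.825). Clusters were runs only, so different runs and solitary peaks of 1 gene counted as independent. The p-value carries no spread between libraries, which were pooled. It also makes no allowance for how the peak caller divided continuous coverage into peaks. The comparison depends on what the members are set against. Of the 3982 other peaks of the same genes 6.55% held ACTAAC, so that the unadjusted share was higher in members, at 7.90%. In the regression with the width covariate against these peaks, the odds ratio was 0.869 with an interval of 0.725 to 1.04 (p = 0.13, n = 3982 other peaks). A difference was no longer shown. Both shares within these genes lay under the 10.10% of the whole list. The difference also varied with location. By the annotation of the peak centre, 7.93% (6.98 to 8.99) of intronic members and 11.2% (10.7 to 11.7) of other intronic peaks held ACTAAC, and in exons of retained_intron transcripts, a GENCODE class, the shares were 6.10% (4.20 to 8.79) and 14.4% (12.2 to 17.1). In 3′UTRs they were close, at 8.73% (6.34 to 11.9) and 8.43% (7.07 to 10.03). In exons of noncoding genes the order was the reverse, with 20 of 132 members (15.2%, 10.03 to 22.2) against 7.64% (5.52 to 10.5) of the others, intervals that overlap, and 8 of these 20 lay in the run of the lncRNA MIAT. No test was made within locations.

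The share of peaks with ACTAAC was lowest in the longest runs. It was 11.01% (10.5 to 11.6) for solitary peaks, 9.57% (8.34 to 10.97) in runs of 5 to 7, 7.00% (5.78 to 8.47) in runs of 8 to 14 and 5.40% (4.04 to 7.20) in runs of 15 or more. The intervals of solitary peaks and of the 2 longest classes did not overlap, whereas those of runs of 2, 3, 4 and 5 to 7 peaks did. On the opposite strand, which serves as a background for the same bases, 1.15% of member peaks and 0.582% of the other peaks held the element.

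**Figure D1:**
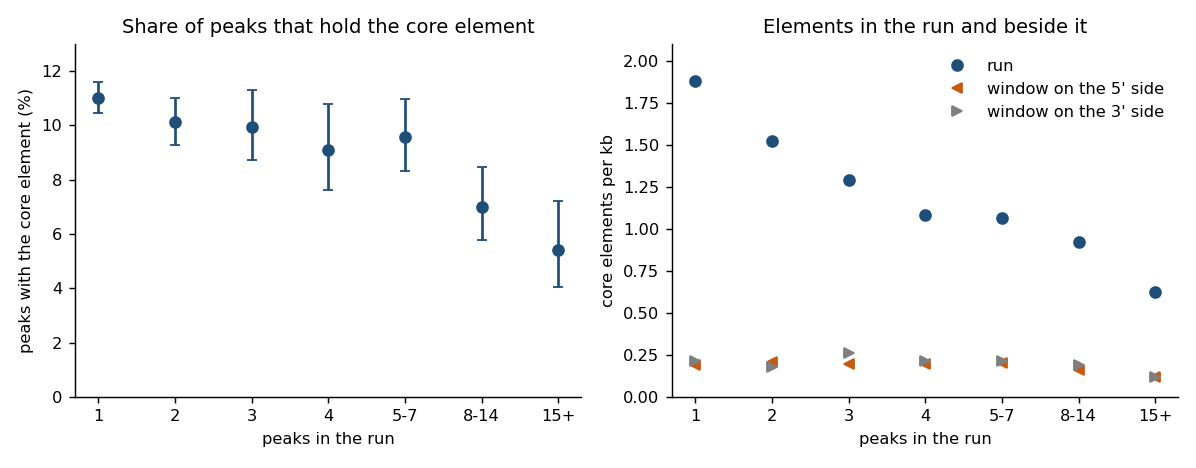
Left, the share of peaks holding the core element ACTAAC (y axis, percent, with 95% Wilson intervals) by the number of peaks in the run (x axis). Right, core elements per kb in the whole span of the runs (circles) and in windows of the same length 500 nt away on the 5′ side (left-pointing) and the 3′ side (right-pointing). The share goes from 11.01% for solitary peaks to 5.40% in runs of 15 or more, and every class lies above its windows.

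The runs were nevertheless richer in the element than the sequence around them. ACTAAC occurred at 0.924 sites per kb of run span, against 0.169 and 0.185 in windows of the same length 500 nt away on the 5′ and 3′ sides. In runs of 15 or more the densities were 0.622 in the span and 0.120 on either side. Most sites lay under peaks, with 396 of the 449 sites in the spans (88.2%) inside a member peak. At least 1 peak held ACTAAC in 254 of the 516 runs (49.2%, 44.9 to 53.5), while 242 runs had none anywhere in the span, 194 had 1, 54 had 2 and 26 had 3 or more. The share of runs with such a peak rose with run size, unlike the share of peaks. It was 11.01% for solitary peaks, 22.3% in runs of 2 to 4 and 14.7% over the whole list. In runs of 5 to 7, 8 to 14 and 15 or more it was 45.5%, 53.1% and 67.6%. A run of more peaks has more places for the element. With ACTAAT counted as well, 11.48% of member peaks and 14.3% of the others held a core element. A core ACTAAC or ACTAAT and a further TAAC or TAAT with at most 20 nt between them was found in 4.24% of member peaks (3.67 to 4.90) and 4.72% of the others (4.43 to 5.02), intervals that overlap. TAAC or TAAT by itself was in 40.9% of member peaks and 36.8% of the others, at 8.35 and 8.74 sites per kb of peak.

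Inside the runs the core element was more frequent in the tallest peaks. The tallest peak held ACTAAC in 142 of 516 runs (27.5%, 23.8 to 31.5), whereas 182 of the 3587 remaining member peaks did (5.07%, 4.403 to 5.84). Median width was 98 nt for the tallest peaks and 72 nt for the remaining ones, and a wider peak has more room for an element. Member peaks with ACTAAC had a median height of 63, and those without one of 27. Among peaks without the element there was no gradient with distance, since the median height was 28 where the nearest site was within 100 nt of the summit, 27 between 100 and 300 nt, 27 beyond 300 nt, and 27 in runs that had no site at all. In the 274 runs with a site in the span, the summit of the tallest peak was a median of 55 nt from the nearest site and within 50 nt in 131 of them.

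**Figure D2:**
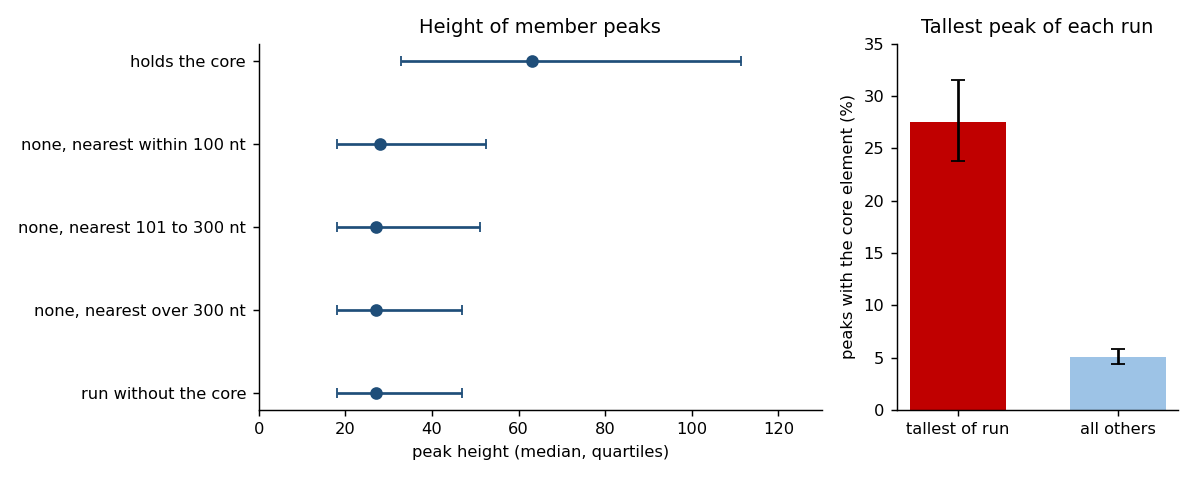
Left, heights of member peaks (x axis, median as point and quartiles as bars, signal without unit) for peaks that hold the core element, peaks without it by the distance from summit to the nearest element, and peaks of runs with no element. Right, the share of peaks with the core element (y axis, percent, 95% Wilson intervals) for the tallest peak of each run and for all other members. Peaks with the element reach a median of 63, the other classes 27 or 28, and the shares are 27.5% and 5.07%.

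MICAL3 gave the longest run. MICAL proteins are flavin monooxygenases that act on actin filaments, and MICAL3 also takes part in vesicle transport. Its run of 43 peaks lay in intron 16 of 31 introns of the gene at chr22:18358070-18363537, minus strand, and its 5468 nt held 1 ACTAAC, under a peak of height 30. The run's heights went from 12 through a median of 80 to 693. TAAC occurred at 18.5 sites per kb of the span, and 93 of these sites formed an array of 904 nt with a commonest spacing of 9 nt. The 8 peaks on the array had heights from 150 to 693 with a median of 280, and the 35 peaks off it had a median of 65 and a highest value of 300. The tallest peak, printed above, held 22 TAAC in 217 nt, 20 of its spacings lying within 2 nt of 9 nt. ACTAAC was absent from it.

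TAAC arrays recurred among the dense runs. Taking 8 or more TAAC sites and otherwise the same definition, 17 runs had an array, and 10 of these had no array of the full core. Windows of the same length 500 nt away held 4 such arrays on the 5′ side and 5 on the 3′ side, and the opposite strand of the runs held 1. Of all 256 tetramers counted in this way, only TTTT (121 runs) and AAAA (50 runs) formed arrays in more runs than TAAC, GGGG equalled it with 17, and the median tetramer formed them in 2. These counts describe the reference sequence under the runs, and no test was made of them.

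The genes with TAAC arrays were diverse. CANT1, a calcium-activated nucleotidase, had runs of 30 and 25 peaks in its first intron, each with an array at a commonest spacing of 15 nt. In the first of them 3 peaks lay on the array, with heights of 106, 144 and 168, and the tallest peak of the run, at 232, lay off it. In the second the 5 peaks on the array included the tallest, of height 315, but their median was 37, equal to the median of the 20 peaks off it. GPR35, a G-protein-coupled receptor, had the highest density, with 64 TAAC in a run of 1238 nt and a commonest spacing of 6 nt. FAM120B had 26 TAAC at a spacing of 39 nt and heights up to 290, RTTN, a centriole protein, had 32 at 31 nt and heights up to 163, and DIP2C had 11 at 49 nt and heights up to 391. MUC20-OT1 (29 nt), RAP1GAP2 (31 nt) and SDHA (28 nt), the last a subunit of succinate dehydrogenase, completed the group. SDHA went the other way, since its 4 peaks on the array reached at most 26 and the single peak off it 31.

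**Figure D3:**
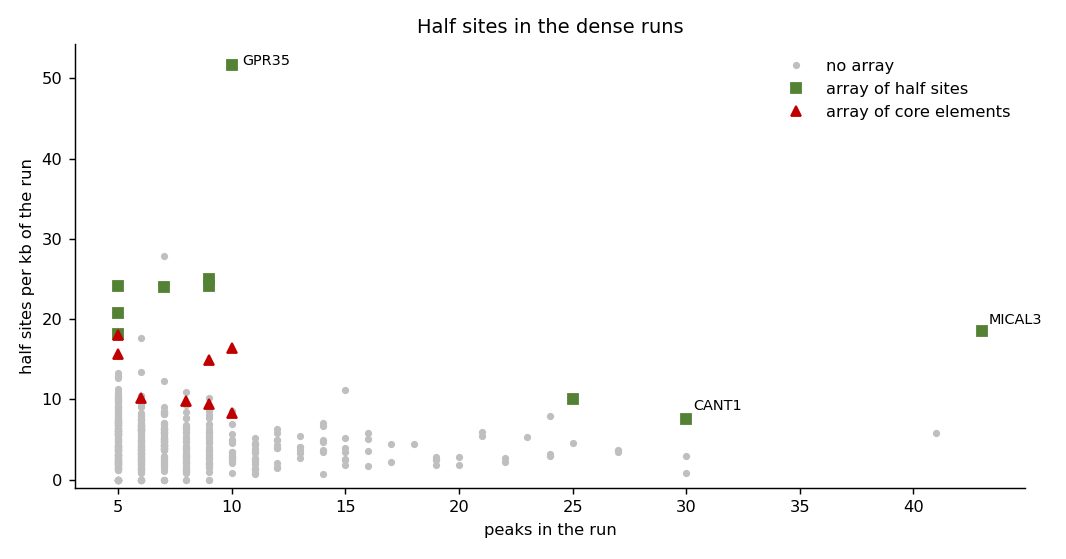
Each point is a run, by its number of peaks (x axis) and its TAAC sites per kb of span (y axis). Green squares are runs with a TAAC array, red triangles runs with an array of the core ACTAAC, and grey points the other runs. MICAL3, with 43 peaks and 18.5 sites per kb, and GPR35, with 51.7 sites per kb, stand apart from the median of 4.22 over all 516 runs.

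Arrays of the full core were found in 8 runs with 62 peaks and 72 ACTAAC sites, 1.55% of the runs and 16.0% of the sites. Among the 15072 solitary peaks and shorter runs there were 4, of which 2 were in the 3344 runs of 2 to 4 peaks. Those stretches have less room for 4 sites, with a median span of 64 nt against 780.5 nt in the dense runs. The part of span in the difference was not tested. LYRM4 had 11 sites spaced exactly 18 nt apart, and consecutive units were identical at a median of 91.7% of positions. The peaks of that run, from its 5′ end, had heights of 15, 19, 32, 8, 13, 33, 141, 40, 48 and 47. The 3 that held the element were those of 141, 40 and 48, and the array ended before the last peak. SMYD3 had 10 sites, 8 of 9 spacings being 57 nt, and its peaks had heights of 28, 22, 155, 141, 338, 23, 87, 43 and 85, of which those of 155, 141, 338 and 87 held the element. All 4 exceeded every other peak of the SMYD3 run. PRDM15 had 12 sites, the largest number outside MIAT, with a commonest spacing of 47 nt, but only 1 of its 4 peaks with the element was tall, at 179, the others reaching 18, 32 and 19.

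The remaining core arrays were smaller. ATP11A carried them in 2 neighbouring runs of 10 and 5 peaks at 32 and 31 nt, with tallest peaks of 112 and 68 on the arrays. STK10, a serine/threonine kinase, had 9 sites at 25 nt under peaks of at most 54, MAPK8IP3 had 5 sites at 40 nt under peaks of at most 59, and WNT5B had ACTAAC overlapping itself every 4 nt under a peak of height 20. Over the 18 runs with an array of either element, the tallest peak lay on the array in 15. The exceptions were the 30-peak run of CANT1, WNT5B and SDHA. The arrays took very different shares of the peaks, from 8 of 43 in MICAL3 to 8 of 10 in GPR35 and 8 of 9 in RTTN. All 7 peaks of FAM120B lay on its array, so its tallest peak could lie nowhere else. The count was not set against these shares or tested. Of the 17 of these runs that also had peaks off the array, the median height was greater on it in 14. Here the array was the longest stretch of sites with no spacing over 100 nt. Peaks on sites beyond such a gap counted as off it, among them the ATP11A peak of 100 and the SMYD3 peak of 87, which hold ACTAAC. Without the 8 core arrays the density over all runs was 0.788 sites per kb.

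**Figure D4:**
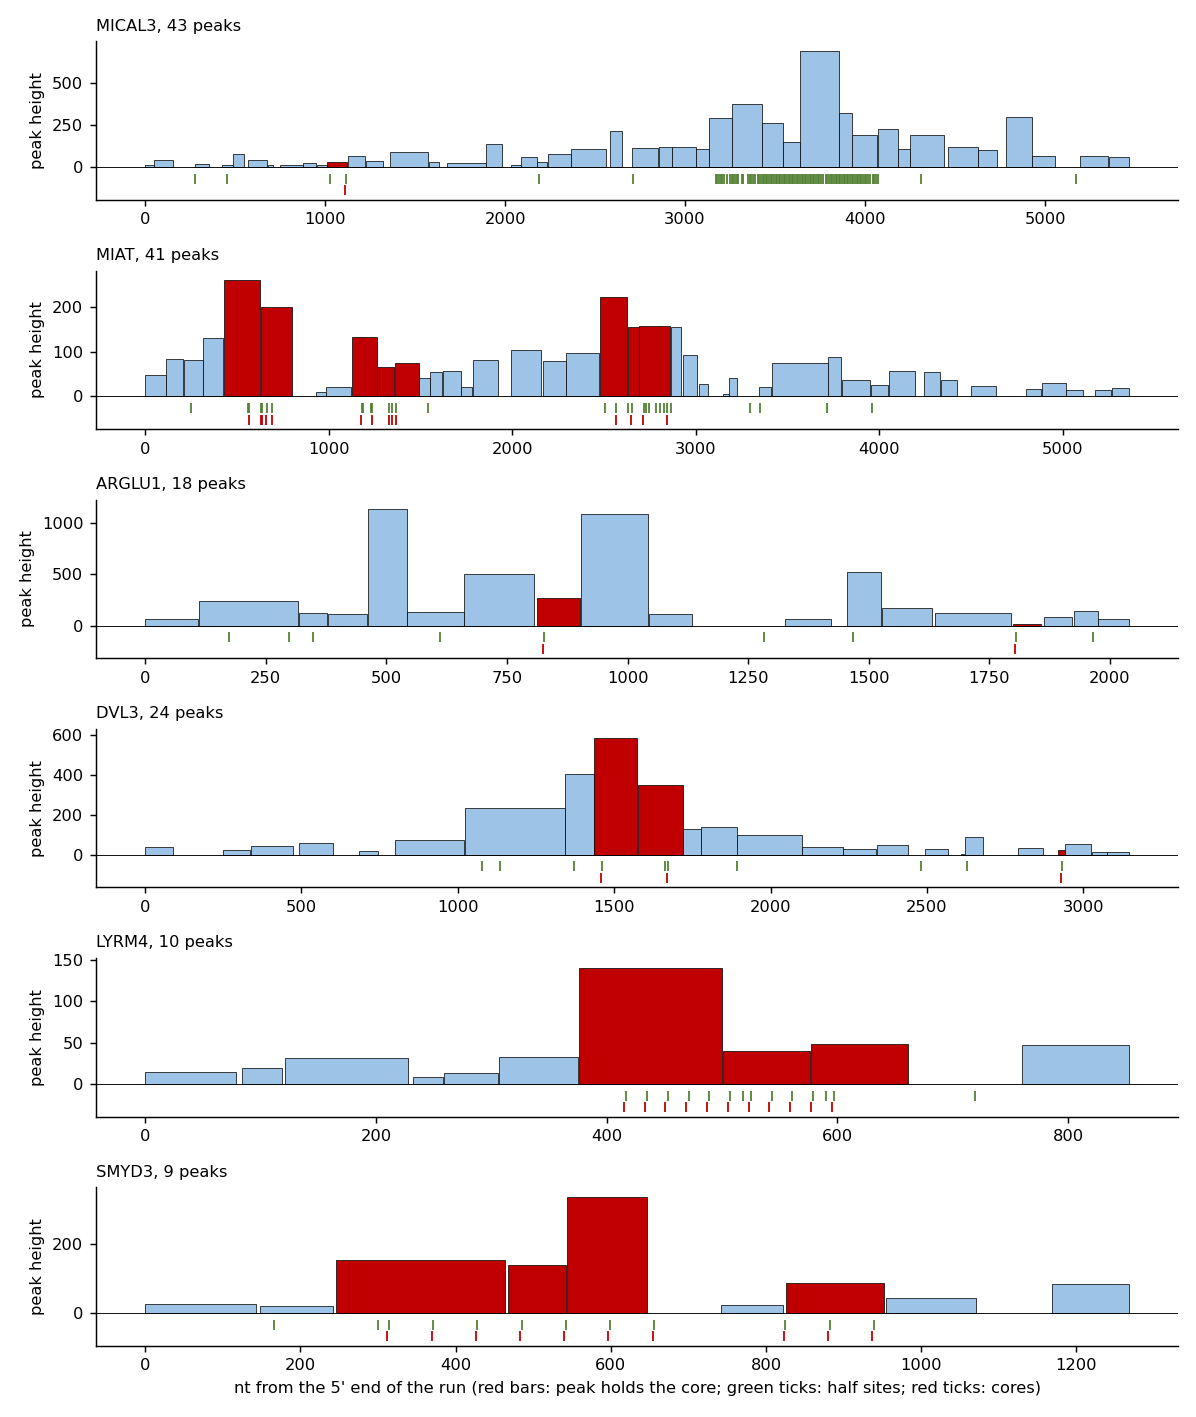
Peak heights (y axis, signal without unit) along 6 runs, in nt from the 5′ end of each run (x axis). Bars span the listed peaks, red where the peak holds the core element, green ticks mark TAAC and red ticks ACTAAC. The tallest peak of MICAL3 stands over the dense block of TAAC, with a peak of 300 off it. The tallest of MIAT, DVL3, LYRM4 and SMYD3 hold core elements, whereas the DVL3 peak of 404 and the ARGLU1 peaks of 1136 and 1093 hold none.

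MIAT, a nuclear lncRNA, had the second longest run and the most core elements. The 41 peaks at chr22:27066819-27072181, plus strand, lay in exons of noncoding genes (MIATNB is annotated on the same strand there), and the span held 14 ACTAAC. Heights went from 5 through a median of 56 to 262. The 8 peaks with the element had heights of 262, 200, 134, 65, 75, 223, 157 and 159, and the highest peak without it reached 157. The sites lay in groups and not in an array of fixed spacing. OIP5-AS1, another lncRNA (a further noncoding gene is annotated on the same strand there), held the third largest summed height, 3775 over 19 peaks. Its heights went from 19 through a median of 150 to 560, and its 1 ACTAAC lay under a peak of 334. Runs in which exons of noncoding genes took 50% or more of the peak nucleotides numbered 12, and 7 of these held ACTAAC in a peak.

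Splicing factor genes included the tallest member of all. ARGLU1 encodes a splicing coactivator whose intron 2 is retained in an annotated transcript. The span of its run of 18 peaks at chr13:107209912-107211951, minus strand, took in 81.2% of the 2300-nt intron. The heights from the 5′ end were 66, 235, 118, 112, 1136, 136, 503, 270, 1093, 108, 63, 518, 174, 119, 13, 82, 137 and 67. The span held 2 ACTAAC, under the peaks of 270 and 13, and the peaks of 1136, 1093, 518 and 503 had none. PCBP2, a poly(C)-binding protein, differed, since in its run of 25 peaks the tallest, at 565, held ACTAAC and the next reached 193. MATR3, a nuclear matrix protein that binds RNA, had 4 runs with 33 peaks and heights up to 161. In 1 of these, of 10 peaks, 91.8% of peak nucleotides lay in exons of noncoding genes, and SNHG4 is annotated on the same strand there. HNRNPU had 2 runs with 18 peaks and heights up to 112. QKI itself had 1 run of 5 peaks in its 3′UTR, at chr6:163994888-163995224, plus strand, with heights of 33, 11, 125, 30 and 8, and the only ACTAAC lay under the first, not under the tallest.

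More of the runs in 3′UTRs than of those in introns held the core element in at least 1 peak, at similar densities of sites. The 3′UTR took 50% or more of the peak nucleotides in 41 runs, and 31 of these (75.6%, 60.7 to 86.2) held ACTAAC in a peak, against 144 of the 282 runs wholly in introns (51.1%, 45.3 to 56.8), intervals that do not overlap. Per kb of span the densities were 1.14 and 1.04 sites, and per peak the shares given above for 3′UTRs and introns, 8.73% and 7.93%, had overlapping intervals. The 3′UTR runs were also longer and taller, with medians of 8 and 6 peaks and of 125 and 66.5 for the height of the tallest peak, and the part of either in the difference was not tested. In DVL3, a Dishevelled protein of Wnt signalling, the run of 24 peaks at chr3:183887597-183890743 took in the 3′UTR and coding sequence. Its peaks of 582, the tallest, and of 347 held ACTAAC, as did a low peak of 22, whereas the neighbouring peaks of 404 and 232 had none. In TASOR, a component of the HUSH silencing complex, the 24 peaks lay wholly in the 3′UTR. The tallest, of 698, covered 3 overlapping ACTAAC 4 nt apart, as printed above, while the median of that run was 32. These elements lay near the 3′ end of the peak and not at its summit. They began 1679, 1683 and 1687 nt from the 5′ end of the run, and the summit lay at 1556 nt.

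Annotation changed with run length. Introns held 76.1% of peak nucleotides for solitary peaks, 76.1% in runs of 5 to 7, 65.5% in runs of 8 to 14 and 54.0% in runs of 15 or more. Exons of transcripts that GENCODE labels retained_intron rose over the same classes from 3.18% to 8.19%, 11.6% and 12.9%, and 3′UTRs were at 7.08%, 5.54%, 11.3% and 14.4%. Intergenic sequence went from 7.07% to 1.75%. In all, 282 runs (54.7%, 50.3 to 58.9) had all their peaks in introns, 100 touched coding sequence, and 80 touched such a retained_intron exon. The 47 runs with 50% or more of their peak nucleotides in retained_intron exons held ACTAAC in a peak in 21 cases (44.7%, 31.4 to 58.8), near the 49.2% of all dense runs. The longest class comprised 37 runs, so that single runs weigh in its shares.

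**Figure D5:**
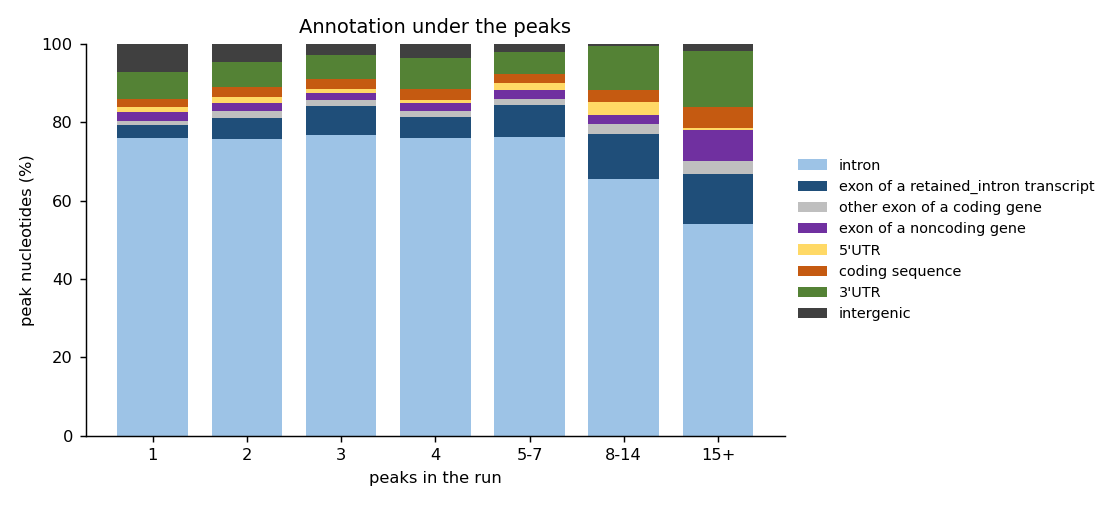
Share of peak nucleotides (y axis, percent) in each annotation class, stacked, by the number of peaks in the run (x axis). A nucleotide in several classes takes the first of coding sequence, 3′UTR, 5′UTR, exon of a noncoding gene, exon of a retained_intron transcript, other exon, intron and intergenic. Introns go from 76.1% for solitary peaks to 54.0% in runs of 15 or more, and exons of retained_intron transcripts from 3.18% to 12.9%.

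Most runs lay within 1 intron and took a small part of it. Of the 516 runs, 383 lay wholly in 1 intron of the canonical transcript, whose median length was 9774 nt, and they spanned a median of 7.60% of it. They came closer to splice sites than solitary peaks, with 46 runs (12.01%, 9.13 to 15.6) within 250 nt of the 5′ splice site and 41 (10.7%, 7.99 to 14.2) within 250 nt of the 3′ splice site, against 5.40% (4.96 to 5.88) and 3.58% (3.22 to 3.98) of the 9223 solitary peaks in introns. A run is longer than a peak and lay in shorter introns (the solitary peaks' introns had a median of 18745 nt), and the part of either in this difference was not tested. First introns held 21.7% of the runs and 29.1% of the solitary peaks.

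The span of a few runs took in all or nearly all of an intron. Shares of introns given here are those of the span, gaps between peaks included. In 20 runs the span overlapped 90% or more of an intron of the canonical transcript. Some of these introns were very short, such as those of 8 nt in POLR2A and 47 nt in NOTCH2NLB. The peaks of the NOTCH2NLB run lay wholly in 3′UTR. VCL encodes vinculin, which links integrin adhesions to actin. The span of its 27 peaks at chr10:75871381-75874250, plus strand, took in all 2071 nt of intron 19 and ran on into introns on either side. Peaks took 81.3% of that span, with heights from 8 through 26 to 155. TPM1, a tropomyosin, had 24 peaks across the last intron of its canonical transcript, of 1753 nt. With 2 further runs of 14 and 11 peaks downstream, 49 of its 56 peaks lay in runs. By the annotation of all transcripts, 100% and 69.3% of the peak nucleotides of these 2 runs were intronic. DOT1L, a histone methyltransferase, had 19 peaks over 92.1% of its last intron. PHLDB1, which helps to anchor microtubules at the cell cortex, had 27 peaks over 96.4% of intron 9, with heights from 13 through 39 to 246. GPC1, a glypican, had 10 peaks over 95.2% of intron 4. The run of DOT1L named here held no ACTAAC, and those of VCL and PHLDB1 held 2 each. By the annotation of all transcripts these runs were partly exonic. Retained_intron exons took 80.7% of the peak nucleotides in PHLDB1, 3′UTR 38.4% in the 24-peak run of TPM1, and coding sequence 30.6% in DOT1L. In VCL 90.6% were intronic.

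The runs lay in a small share of the genes with peaks. Of 5009 genes with a peak, 380 had a run, which is 7.59%, and of the 1262 genes with 5 or more peaks 30.1% did. Among the 380, 80 had 2 or more runs, 28 had 3 or more, and 24 had every one of their peaks in runs. The largest totals were those of MICAL3 with 7 runs and 93 of its 129 peaks, CANT1 with 4 runs and 65 of 71, TPM1 with 3 runs and 49 of 56, the lncRNA PVT1 with 6 runs and 46 of 120, and NAV2, a protein of neurite outgrowth, with 6 runs and 44 of 186. By biotype, 475 runs lay in protein-coding genes, 28 in lncRNAs and 9 in no gene. Where genes overlapped on the strand, a run was given to a named protein-coding gene first. PFKP, the platelet form of phosphofructokinase, and NDEL1, a regulator of dynein, each had a run of 30 peaks with 1 ACTAAC. Heights in PFKP went from 12 through 28 to 194 and in NDEL1 from 7 through 31 to 100.

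Gene lists differed in how many of their genes carried a run, and they are described beside the 7.59% of all genes with a peak. The lists were written with earlier results of these data known, so their shares are not independent evidence. Of 42 actin and myosin cytoskeleton genes with a peak, 15 had a run (35.7%, 23.0 to 50.8), with 352 member peaks. The leading genes were MICAL3, TPM1 and TLN1. TLN1, encoding the integrin activator talin, had 36 of its 39 peaks in 4 runs, and the longest of these, of 15 peaks with heights from 10 through 24 to 127, held no ACTAAC. Of 42 splicing regulator genes with a peak, 15 also had a run (35.7%), with 168 member peaks, those of the MATR3 run shared with SNHG4 included. The extracellular matrix and integrin list had 1 of 20 (5.00%, 0.888 to 23.6), which was FN1, fibronectin, with runs of 8 and 5 peaks and heights of at most 49. Of 19 junction and polarity genes with a peak, 4 had a run (21.1%, 8.51 to 43.3), among them ERBIN with 3 runs and 19 peaks, DLG1 with 6 peaks and PKP4 with 6 peaks. Genes with many peaks are more likely to hold a run. Of the list genes with 5 or more peaks, runs were found in 55.6% for the cytoskeleton, 57.7% for splicing regulators, 16.7% for the matrix and 33.3% for junctions, against 30.1% over all such genes.

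Genes whose exons the study followed by RT-PCR gave 9 runs in 4 of 11 genes (36.4%, 15.2 to 64.6), beside the 7.59% of all genes with a peak. Of the 7 with 5 or more peaks 57.1% had a run, beside 30.1% over all such genes. The study chose these events for their response to QKI-5 and to miR-200c and also for predicted direct binding by QKI-5, so the count is not independent evidence. MARK3, a polarity kinase, had runs of 15 and 5 peaks in introns 3 and 12, with heights up to 58 and 63, and the only ACTAAC of either lay under that peak of 63. MYO18A, an unconventional myosin, had runs of 13 and 7 peaks that both lay in intron 40 of 41, of 3165 nt, and reached its 5′ and 3′ ends, with heights up to 214 and 167 and no ACTAAC. MPRIP, which brings myosin phosphatase to actin, had runs of 12, 7 and 5 peaks, that of 7 in the 3′UTR, with heights up to 143, 17 and 23, and none held ACTAAC. CD47, a receptor of the immunoglobulin superfamily, had a run of 11 peaks at chr3:107767928-107769658, minus strand. The run's span took in all 926 nt of intron 9 and went beyond it on either side, and peaks took 63.1% of the span. The heights were 41, 15, 67, 86, 32, 63, 27, 104, 107, 14 and 174. ACTAAC lay under the peak of 104. A second CD47 run of 5 peaks in intron 7 reached 42 and held none.

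Frequencies of other hexamers also differed between member peaks and the rest, which is given as a description. The shares are per peak without allowance for width, and median width was 75 nt in members against 59 nt in the other peaks. A wider peak has more room for any hexamer. Over hexamers present in at least 100 of the other peaks, CCTCCC was the most frequent in members, in 8.87% against 5.10% of the others, followed by CTGCCT with 8.38% against 5.14%. ACTAAC stood at rank 3 by frequency in members, and at rank 77 from the bottom of 3212 by the ratio of members to others. The lowest ratio was that of TCGAAC, in 0.171% of members against 0.506% of the others, and CCTGCG had the highest, in 1.83% against 0.674%. Mean GC content was 50.5% in members and 51.8% in the other peaks.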

How the data were processed

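QKI-5 HITS-CLIP was performed on 7 immunoprecipitation and 2 size-matched input libraries of mesHMLE cells. Per the methods and the submitters' processing notes, reads were trimmed with cutadapt 1.3 and mapped to hg19 with TopHat2 2.0.10. Reads with the same molecular barcode and position were collapsed, and alignments of low mapping quality removed. Libraries were pooled, and peaks were called on each strand against the input with MACS2. The authors deposited a whole number with each peak of the pooled list, named peak height in their supplement. It was taken as a signal, since its exact definition and any normalisation are not given in the sources used here. Reads in repeated sequence, arrays included, are those left after the mapping filter.

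Positions count the first base as 1. Sequence came from GRCh37 and annotation from GENCODE release 44 placed on that build. Introns are those of each gene's canonical transcript. Peaks were joined into runs as described, with a maximum distance of 200 nt. MALAT1 was taken as chr11:65265111-65275544 and NEAT1 as the span chr11:65190245-65213011. Motifs were searched on the peak's strand as ACTAAC, its variant ACTAAT and the shorter TAAC or TAAT, on the opposite strand only where stated, and overlapping matches were counted. The logistic regression (statsmodels 0.14.6) used log2 peak width and errors clustered on the run. Windows lay 500 nt beyond each side. Scripts used Python 3.11.15, numpy 2.4.6, pandas 2.3.3, pysam 0.24.0 and matplotlib 3.10.9, and were tested on simulated data.

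The members and gene lists were chosen with earlier results of these data known. The genes named were set by rule: the 12 runs with the most peaks, the 6 with the most ACTAAC, the 5 with the largest summed height, all runs in genes of the RT-PCR events and in QKI, and up to 3 genes of each other list. A further part of the rule, the 5 runs with the largest share of masked repeat, was not applied, because the genome used here carried no repeat mask. Genes named for arrays of TAAC, for core arrays beyond the 6, for intron coverage and for totals per gene were chosen after their values were seen. Alternatives were other join distances, run lengths, motifs, covariates, comparison peaks and annotations, and merged peaks.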

Additional observations from a re-analysis of the deposited data

How the results depend on the processing

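The odds ratio of ACTAAC in member peaks against other peaks stayed under 1 and past the threshold of 0.05 in 17 of 18 alternatives, from 0.354 to 0.726. The exception took other peaks of the same genes as the comparison and gave 0.869, and the cause was not tested. In that comparison the unadjusted share was higher in members, at 7.90% against 6.55%. The number of members followed the rule, with 2628 at a join distance of 100 nt, 6340 at 500 nt, 2181 in runs of 8 or more, 1547 when only the taller peaks (from the median upwards) were used, and 873 after merging peaks up to 10 nt apart. The share of runs with ACTAAC rose from 49.2% to 62.2% when ACTAAT was counted, and to 54.1% and 56.2% after merging peaks up to 1 and 10 nt apart. The share of runs in introns was 54.7%, and 67.2% with exons of coding transcripts only, 71.7% by the centre of the span and 43.8% after merging up to 10 nt. Merging overlapping peaks changed nothing, because none overlap. The merges at 1 and 10 nt, the window around the summit and the omission of core arrays were added after the data were seen. No paired analysis was possible because the libraries were pooled before the peaks were called, so the list carries no value per library. For the same reason, neither the spread between replicates nor the depth per library can be given. Because 58.7% of gaps inside runs are at most 10 nt, the number of peaks in a run depends on how the peak caller divided continuous coverage.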
